A study of Homo sapiens with 11 samples.

Results

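Terminal oligopyrimidine (TOP) mRNAs that encode no ribosomal protein were examined among the RNA recovered with the ribosomal protein RPS19 of the small subunit. The 6 genes were NPM1, NAP1L1, TPT1, PABPC1, VIM and NCL, and every enriched window whose deposited gene name held one of these symbols was taken. This gave 150 entries over 3 lists, at 96 distinct positions out of 122708 for all 8697 genes. The data were enhanced crosslinking and immunoprecipitation (eCLIP) of HEK293T cells, a human embryonic kidney line, in which protein and RNA are crosslinked by ultraviolet light and the RNA that precipitates with a protein is sequenced against an input of matched fragment size. Of 11 samples, 3 were precipitates of overexpressed wild-type RPS19 (WT), 3 of RPS19 R62W and 2 of RPS19 R101H, each as a V5-tagged copy from a transfected plasmid and precipitated with an anti-V5 antibody, and 3 were inputs from cells without plasmid. R62W and R101H are amino acid substitutions of Diamond-Blackfan anemia, an inherited failure of red cell production. The labels name no change to the cells' own RPS19 genes, so each group reports on an added copy. The comparisons address how each substitution changes what RPS19 recovers. The labels do not say that replicates came from separate cultures, so a p-value reflects only how far these samples scatter, which may be technical scatter.

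TOP mRNAs begin with a cytosine followed by an unbroken run of pyrimidines. The kinase complex mTORC1 raises their translation when nutrients and growth signals are present, and the RNA-binding protein LARP1 binds the capped TOP motif and holds the mRNAs back when mTORC1 is off. Most encode ribosomal proteins and elongation factors. The genes examined here are further ones: PABPC1 encodes the cytoplasmic poly(A)-binding protein, NPM1 and NCL the abundant nucleolar proteins nucleophosmin and nucleolin, NAP1L1 a histone chaperone, TPT1 the translationally controlled tumour protein, and VIM the intermediate filament protein vimentin.

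The TOP motif lies at the transcription start, and the starts of 5 genes, matched by symbol to RefSeq promoter records on GRCh38.p14, show which of these carry it. The start of the sixth gene, PABPC1, is not shown, so its motif was not examined here. Each run is 30 bases, 15 before the annotated start and 15 from it, 5′ to 3′ on the coding strand, with the pyrimidines that follow the start without a break in capitals.
NPM1 (chr5:171387834-171387863, plus strand): cggggagcctgcgtcCTTTCCCTggtgtga
NAP1L1 (chr12:76084671-76084700, minus strand): ggcgggctcttgggtCTTTTTTagcgccat
TPT1 (chr13:45341169-45341198, minus strand): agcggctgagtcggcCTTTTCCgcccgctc
NCL (chr2:231464470-231464499, minus strand): tcagtctttcgcctcagtctcgagctctcg
VIM (chr10:17228226-17228255, plus strand): gtgcaatcgtgatctgggaggcccacgtat
The run was 8 bases long in NPM1 and 7 in NAP1L1 and TPT1, each led by C. At the annotated starts of NCL and VIM the first base was a purine and the run was 0, as it was at another annotated NPM1 start. A C followed by at least 4 pyrimidines stood at 4.07% of 35116 RefSeq starts, so the motif is uncommon but not particular to these genes. An annotated start can lie some bases from the one used in a given cell, and a run of 0 says only that these letters are not at that position.

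The deposited value of a window is the log2 odds ratio of immunoprecipitate (IP) over input; the deposited columns hold its lowest, mean and highest among the replicates that passed. It is relative to a baseline for windows of like G and C content, so it is not a plain ratio of counts. A window absent from a list has no value. The WT list held 15402 windows, that of R62W 86567 and that of R101H 93331, with median log2 odds ratios of 2.03, 1.90 and 2.00. Depth per library is unknown from these lists, and the counts behind a window were low, with a median pooled input count of 11, 12 and 11. Of 5 HEK293T markers (LIN28B, NEFM, NEFL, PAX2, LHX1), LIN28B and NEFL were listed in each substitution and 0 in WT, and none of the 4 K562 or 4 HepG2 markers was listed. An enriched window does not measure a transcript's level, so this is a limited check of the cell line.

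All 6 mRNAs had enriched windows with R62W, 5 with R101H and 4 with WT. Over all 8697 genes the share listed was 89.5%, 93.5% and 38%. WT had 11 member windows, R62W 70 and R101H 69, which were 0.0714%, 0.0809% and 0.0739% of the windows of each list. The members took a like share of each list, and their number was larger where the list was longer. Of the IP counts in listed windows they held 0.114%, 0.233% and 0.256%. NCL and PABPC1 held the most: 4, 19 and 18 windows for NCL and 3, 18 and 19 for PABPC1 in WT, R62W and R101H. NPM1 had 3, 14 and 11, NAP1L1 had 0, 15 and 17, and VIM had 1, 3 and 4. TPT1 had a single window, with R62W. A listed gene had a median of 2, 5 and 6 windows in the same order.

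**Figure D1:**
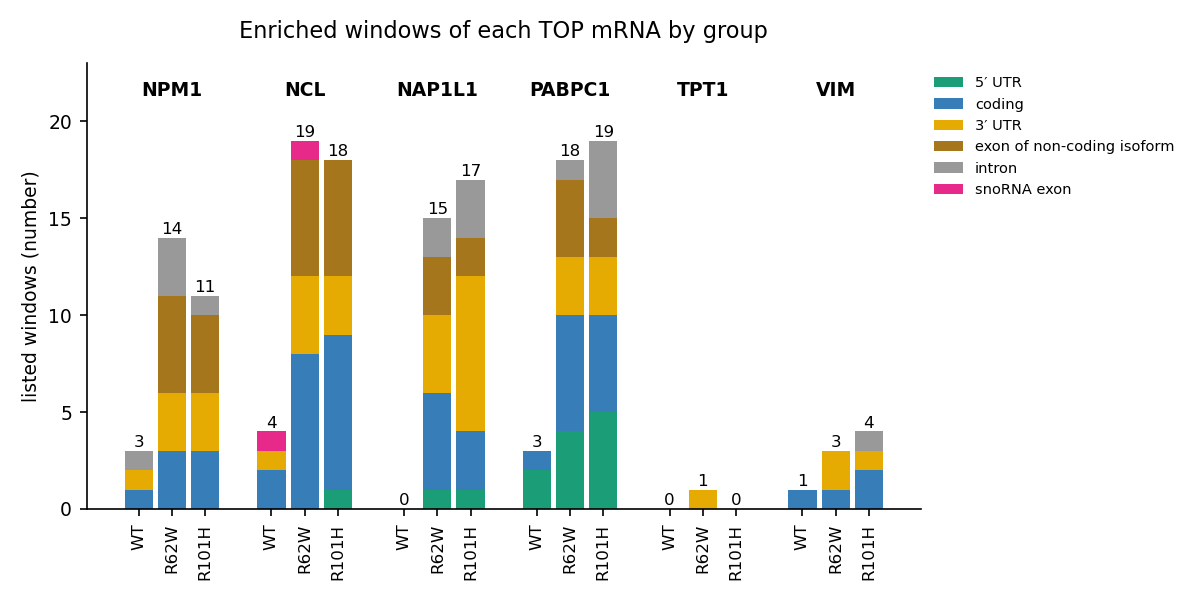
Number of listed windows (vertical axis) of each of the 6 mRNAs in WT, R62W and R101H, 1 bar per group. NCL reaches 19 and PABPC1 18 windows with R62W, NAP1L1 has none in WT, and TPT1 has 1 in all. A list is made once per group, so the bars carry no error.

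Enrichment of these mRNAs was modest. Their windows had a median log2 odds ratio of 0.92 with WT, 1.51 with R62W and 1.46 with R101H, each below the median of its list. Their windows were also better covered than most, with a median pooled input of 167, 49 and 49 counts. Across the members' windows, Spearman's rho between input count and log2 odds ratio was -0.35 for the 11 of WT, -0.76 for the 70 of R62W and -0.66 for the 69 of R101H, and over the whole lists it was -0.87, -0.72 and -0.70. The windows of a group share their libraries, and a sparse window must have a high ratio to pass, so these are descriptions. With fewer than 30 input counts, 32 windows of R62W had a median of 1.94 and 31 of R101H a median of 1.81. With 30 or more, 38 windows in each had medians of 1.07 and 1.18.

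**Figure D2:**
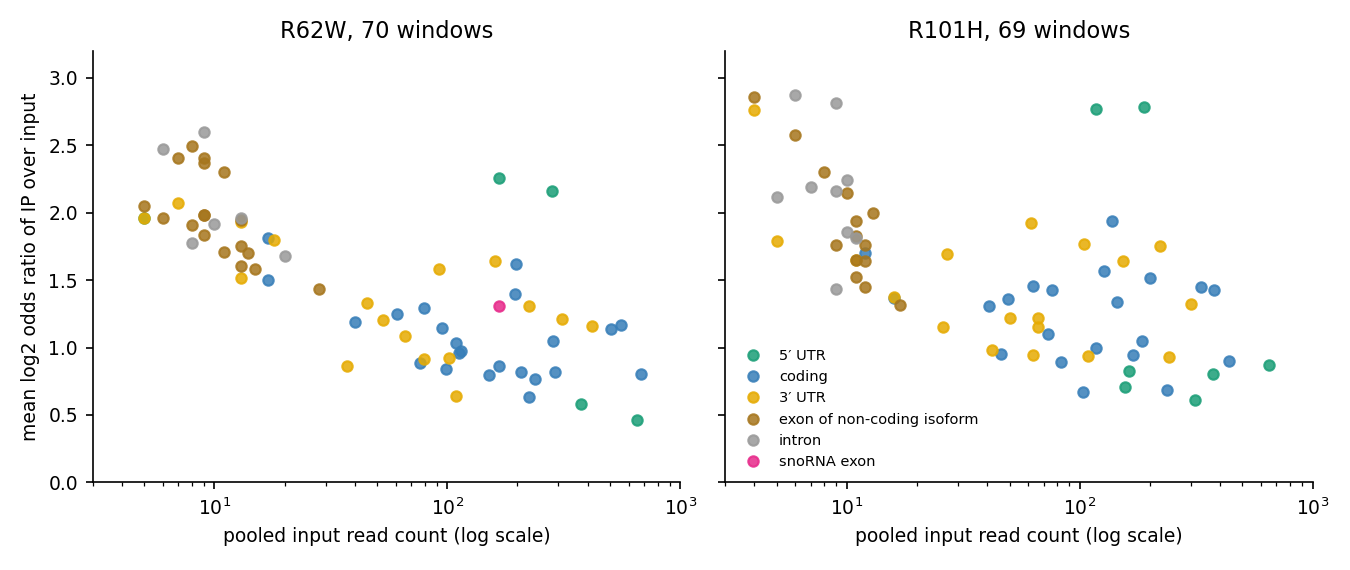
Mean log2 odds ratio of each member window (vertical axis) against its pooled input count (horizontal axis, log scale). R62W and R101H have 1 panel each, WT is not shown, and there is 1 colour per annotation class. Values above 2 sit mostly at fewer than 30 input counts. The first 2 windows of PABPC1 stand apart at more than 100 counts, at 2.26 and 2.16 with R62W and 2.76 and 2.78 with R101H.

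By the deposited log2 odds ratio, PABPC1 was the member with the clearest local enrichment, at the very 5′ end of its mRNA (GRCh38, chromosome 8, RefSeq gene 100702916 to 100722088, minus strand). Its protein coats the poly(A) tail and promotes translation, and it also represses its own mRNA by binding an A-rich stretch of the 5′ UTR. The first listed window (100722004 to 100722088, 5′ UTR) begins at the annotated start and covers 85 bases. In WT its 3 replicates had 0.84, 1.57 and 1.69, with a mean of 1.37 from 424 IP and 167 input counts. In R62W the replicates had 1.60, 2.58 and 2.59, with a mean of 2.26 from 719 and 167 counts. In R101H they had 2.10 and 3.42, with a mean of 2.76 from 790 and 118 counts. The lowest R62W replicate lay below the highest WT replicate, whereas both R101H replicates lay above all of WT.

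The next window of the PABPC1 5′ UTR (100721920 to 100722003) had 29.8% G and C. The replicates in which it passed had 0.68 and 1.55 in WT, a mean of 1.12. With R62W they had 2.02, 2.18 and 2.28, a mean of 2.16, and with R101H 2.65 and 2.91, a mean of 2.78. No replicate of any group overlapped another group's range there. Over all shared windows, R62W lay wholly above WT in 24.1%, R101H wholly above WT in 48.4% and R101H wholly above R62W in 17.9%. In limma, the mean log2 odds ratio was 1.05 higher in R62W than in WT (SE 0.36, adjusted p = 0.437) and 1.66 higher in R101H than in WT (SE 0.47, adjusted p = 0.167). For the first window the limma differences were 0.89 (SE 0.39, adjusted p = 0.50) and 1.40 (SE 0.51, adjusted p = 0.198). None passed 0.05 after Benjamini-Hochberg adjustment over all windows. All shared windows had a median above 0 in R101H minus WT, and centred on it the differences were 1.06 and 0.80 for the second and first windows (limma adjusted p = 0.610 and 0.693). With plain ratios of pooled IP to input counts, centred likewise, they were 0.97 and 0.78. The second window's difference exceeded 98.6% of 492 shared 5′ UTR windows for R62W minus WT and 96.7% of 449 for R101H minus WT.

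The log2 odds ratio was far lower in the adjoining windows downstream. The third 5′ UTR window (100721836 to 100721919) had 0.46 in R62W and 0.87 in R101H, and was not listed in WT. The windows after it had 0.61 in R101H alone (100721668 to 100721751) and 0.58 and 0.81 in R62W and R101H (100721584 to 100721667). The size of this step depends on the baseline for G and C content, since the second window has 29.8% G and C and the third 61.9%. As a plain log2 ratio of pooled IP to input counts, the first 3 windows had 2.74, 2.11 and 1.89 in R101H and 2.11, 1.41 and 1.31 in R62W. On that scale the first window was the highest of PABPC1 in both substitutions, and the step from the second to the third nearly closed. A coding window downstream (100721398 to 100721483) had 1.63 in R62W, above the second window, and 1.92 in R101H, below it. The NCL coding window at 231455401 had 2.22 in R62W, above the first PABPC1 window, and 2.60 in R101H, below it. By log2 odds ratio, among the 12 PABPC1 windows with at least 100 input counts, the next value below the first pair was 1.16 in R62W and 1.52 in R101H.

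**Figure D3:**
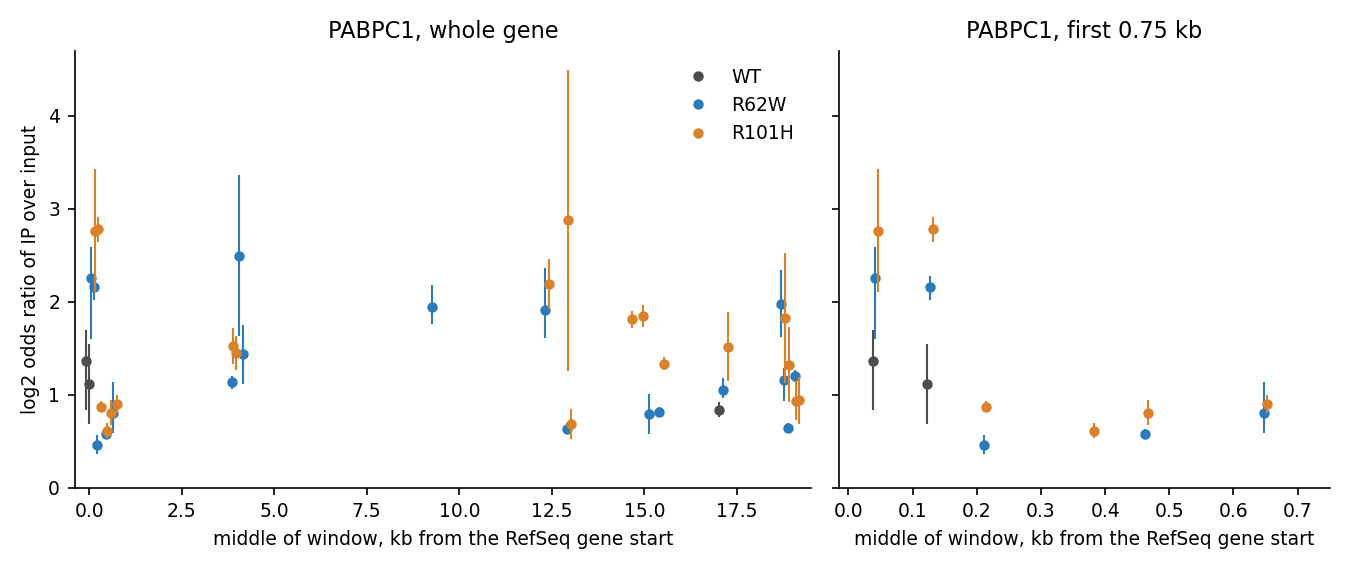
Log2 odds ratio (vertical axis) of every listed PABPC1 window against the distance of its middle from the RefSeq gene start in kb, for the whole gene (left) and its first 0.75 kb (right). Points are means, lines run from the lowest to the highest passing replicate, and groups are set slightly apart sideways. The first 2 windows reach 2.76 and 2.78 with R101H, and the next 5′ UTR windows lie below 1.

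The rest of PABPC1 was enriched at several places with lower values. A coding window (100704926 to 100704990) was the only other one listed in all groups. Its replicates had 0.76 and 0.92 in WT, 0.97, 0.99 and 1.18 with R62W, and 1.15 and 1.89 with R101H. The groups did not overlap for either substitution against WT, but the differences of 0.21 (SE 0.28, limma adjusted p = 0.878) and 0.68 (SE 0.45, limma adjusted p = 0.409) were the third smallest and the smallest among the members' windows. On the plain count ratio, centred over all windows, both differences turned slightly negative, at -0.07 and -0.10. The highest PABPC1 value, 2.88 in an R101H intron window (100709224 to 100709323), rested on 6 input counts and replicates of 1.26 and 4.49. In R62W the highest was 2.50 (1.63 and 3.36) in a non-coding isoform exon window with 8 input counts.

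NCL, whose protein acts in rRNA transcription and processing, had 3 of its 4 WT windows near the 3′ end of its mRNA (chromosome 2, 231453531 to 231464484, minus strand). The window with its stop codon (231455124 to 231455195) had 1.11 and 1.21 in WT, 1.38, 1.68 and 1.79 with R62W, and 1.68 and 2.19 with R101H. The adjoining 3′ UTR window (231455024 to 231455123) passed in all replicates, with 0.68, 0.80 and 1.06 in WT, 1.08, 1.36 and 1.49 with R62W, and 1.53 and 1.76 with R101H. In both windows each substitution lay wholly above WT. Among all shared windows with at least 10 input counts, R62W did so in 31.7% and R101H in 58.7%. The differences from WT were 0.46 (SE 0.29) and 0.46 (SE 0.26) for R62W and 0.78 (SE 0.42) and 0.79 (SE 0.35) for R101H, with limma adjusted p between 0.244 and 0.655. Centred on the median of all windows, all 4 differences lay between 0.18 and 0.20, and with plain count ratios, centred, R62W was 0.17 and 0.23 higher and R101H 0.030 and 0.22 higher in the stop codon and 3′ UTR windows. The stop codon window was the only member window in WT with a highest q of at most 0.05, at 0.00538.

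A coding window of NCL (231455401 to 231455474) had 0.61 and 0.76 in WT, 1.37, 1.37 and 1.44 with R62W, and 1.25 and 1.88 with R101H. R62W was 0.71 higher than WT (SE 0.27, limma adjusted p = 0.472) and R101H 0.88 higher (SE 0.43, limma adjusted p = 0.295). These were 0.44 and 0.28 after centring and 0.69 and 0.60 with plain count ratios, centred. The SNORD82 window, a box C/D snoRNA inside an NCL intron (231460371 to 231460440), had 0.92 and 0.94 in WT and 0.98, 1.35 and 1.59 in R62W, and was not listed in R101H. Of the 4 snoRNAs looked for in introns of the members, it was the only one listed. The highest NCL values, 2.40 in R62W and 2.86 in R101H, lay in exon windows with 7 and 4 input counts.

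NPM1, a chaperone of ribosome assembly and histones, had its windows spread along the gene (chromosome 5, 171387116 to 171410900, plus strand). A coding window that holds the stop codon of an alternative transcript (171392914 to 171392982) was the member window with most input in WT, 342 counts. It had 0.70 and 0.71 in WT, 0.90, 1.17 and 1.42 with R62W, and 1.22 and 1.63 with R101H, with both substitutions above WT. A 3′ UTR window near the 3′ end (171410566 to 171410660) had 0.78 and 1.06 in WT, 0.70, 1.00 and 1.95 with R62W, and 1.72 and 1.80 with R101H. There R62W overlapped WT and R101H did not. At 10 or more input counts, 31.7% of all windows lay wholly above WT with R62W and 58.7% with R101H. An intron window that begins 258 bases after the start printed for NPM1 (171388107 to 171388206, 73% G and C) had 1.59 and 1.70 in WT and 1.29, 1.41 and 2.33 in R62W, a difference of 0.03 (SE 0.41, limma adjusted p = 0.991), and was not listed in R101H. For the coding and 3′ UTR windows the limma differences from WT were 0.46 (SE 0.30) and 0.29 (SE 0.45) with R62W and 0.73 (SE 0.41) and 0.84 (SE 0.40) with R101H. Centring lowered those of R62W to 0.20 and 0.029 and those of R101H to 0.13 and 0.23, and plain count ratios, centred, gave 0.19 and 0.22, and 0.053 and 0.43. The highest NPM1 window in both substitutions was a non-coding isoform exon (171391895 to 171391989), at 2.40 in R62W and 2.58 in R101H from 9 and 6 input counts.

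NAP1L1, which shuttles and deposits histones, had no window in WT and had windows mostly toward its 3′ end with the substitutions (chromosome 12, 76036585 to 76084685, minus strand). Its 3′ UTR held 4 windows in R62W and 8 in R101H. The highest value in both lists was at the same intron window beside a splice site (76049786 to 76049885), with 2.36 and 2.83 in R62W and 2.48 and 3.14 in R101H, from 9 input counts each. With R101H, a 5′ UTR window over the start shown above (76084651 to 76084735) had 0.82 and 0.83, from 587 IP and 163 input counts. NCL likewise had, with R101H alone, a 5′ UTR window (231464354 to 231464452) at 0.64 and 0.78 and a start codon window (231464336 to 231464353) at 1.12 and 1.62.

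**Figure D4:**
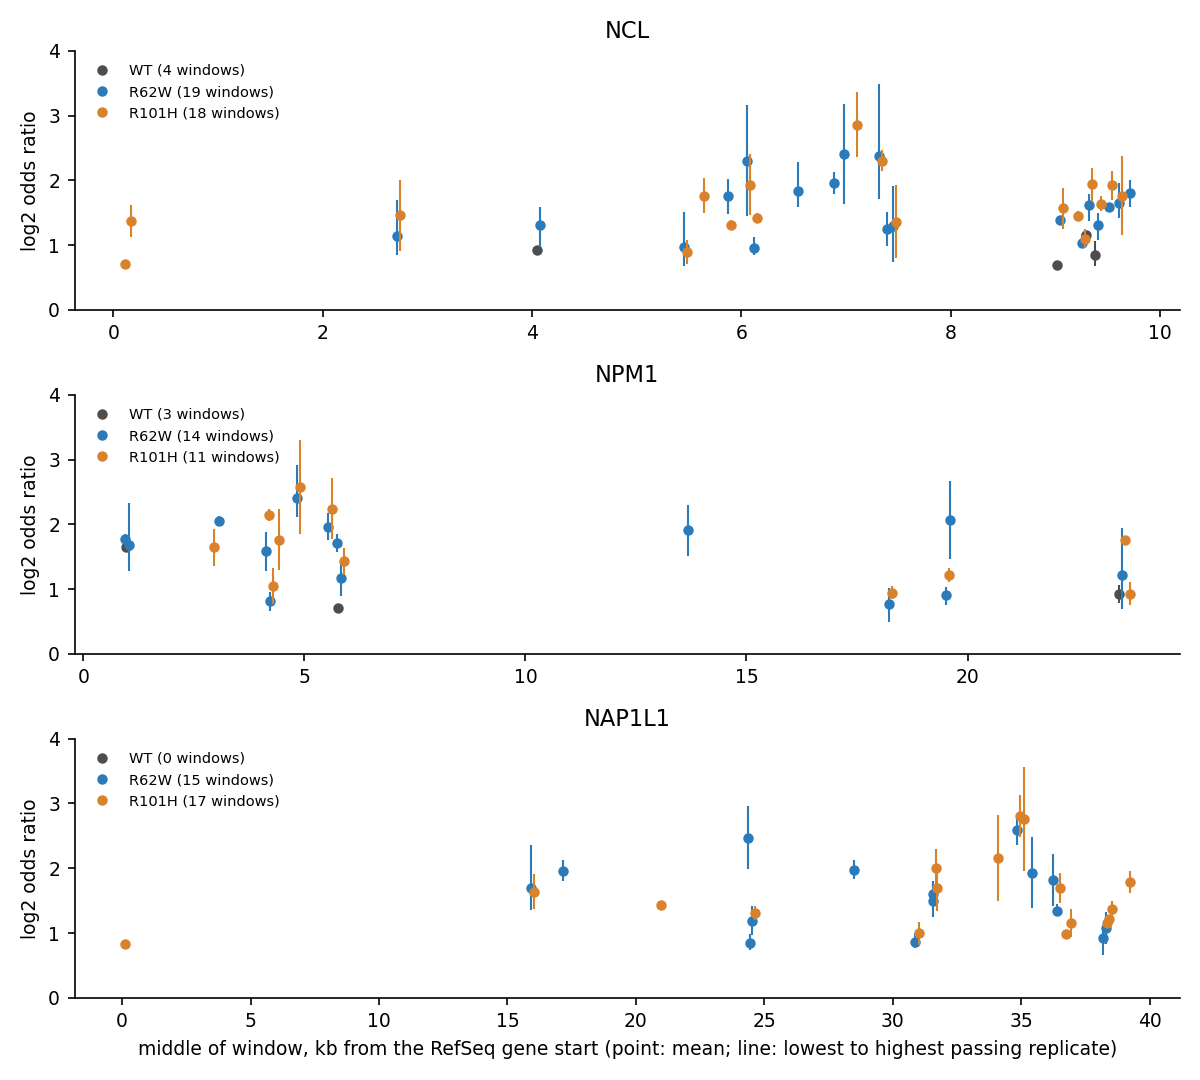
Log2 odds ratio (vertical axis) of every listed window of NCL, NPM1 and NAP1L1 against the distance of its middle from the RefSeq gene start in kb, with groups set slightly apart sideways. Points are means and lines run from the lowest to the highest passing replicate. NAP1L1 has 15 windows with R62W, 17 with R101H and none with WT.

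VIM (chromosome 10, 17228241 to 17237593, plus strand) had a coding window annotated with a start codon (17230633 to 17230710), called the VIM start codon window here. It begins 2392 bases after the RefSeq gene start, and which transcript's start codon it holds was not examined. Its values were 0.75 and 0.76 in WT and 0.73 and 1.04 in R62W, overlapping and 0.13 apart (SE 0.34, limma adjusted p = 0.958). In R101H that window was not listed. A 3′ UTR window (17237513 to 17237593) had 1.45 and 1.58 in R62W and 1.53 and 1.77 in R101H. TPT1 (chromosome 13, 45333471 to 45341183, minus strand), one of the most abundant TOP mRNAs in many cells, had a single 3′ UTR window (45337010 to 45337103), with 0.85 and 0.88 in R62W from 49 IP and 37 input counts and a highest q of 0.197, close to the lists' bound of 0.2.

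With the substitutions, fewer member windows were coding than in the lists and more were non-coding isoform exons. Coding windows were 5 of 11 in WT (45.5%, Clopper-Pearson 95% interval 16.7 to 76.6), 23 of 70 in R62W (32.9%, 22.1 to 45.1) and 21 of 69 in R101H (30.4%, 19.9 to 42.7), against 35.8%, 53.2% and 53.7% of the lists. Exon windows of a protein-coding gene annotated as neither coding sequence nor UTR, called non-coding isoform exons here, were 18 of 70 in R62W (25.7%, 16.0 to 37.6) and 14 of 69 in R101H (20.3%, 11.6 to 31.7), against 2.87% and 2.46% of the lists. The intervals cover counting error only, and neighbouring windows share a transcript. 3′ UTR windows were 24.3% and 26.1% of the member windows in R62W and R101H, near the 23.2% and 26.3% of the lists, and in WT the coding interval held the list's share. The non-coding isoform exon windows were sparse, with a median of 9 and 11 input counts and medians of 1.95 and 1.79, near the 1.92 and 1.94 of all such windows. Coding windows of the members had medians of 1.04 in R62W and 1.34 in R101H, from 151 and 118 input counts, where all coding windows had 1.82 and 1.93 from 14 and 12.

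R62W was compared with WT over the windows that both lists held. All 11 WT member windows were also listed in R62W, against 79.6% of all WT windows. All 11 had a higher mean in R62W, against 72.4% of the 12263 windows tested, with a median difference of 0.46 against 0.26 over all windows. The lowest R62W replicate exceeded the highest WT replicate in 7 of 11, against 24.1%. All 11 had at least 10 input counts in both groups, and the 7656 such windows are a closer background. Of these, 82.2% were higher in R62W, with a median difference of 0.35, and R62W replicates lay wholly above WT in 31.7%. By limma, 0 of 11 member windows passed an adjusted p of 0.05 and 2 had an unadjusted p under 0.05, while 0 of all 12263 passed (0%) and 1252 had an unadjusted p under 0.05. With at least 10 input counts in both groups, 0 of 11 members passed against 0.0131% of windows. Because the median of all windows was itself above 0, the members were also centred on it: 8 of 11 then stayed higher, and those that turned were the NPM1 intron, PABPC1 coding and VIM start codon windows.

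For R101H against WT, 8 of the 11 WT windows were listed in both, against 72% of all WT windows. The 3 not listed in R101H were the NPM1 intron, SNORD82 and VIM start codon windows. All 8 were higher in R101H, against 82.5% of 11082 windows, with a median difference of 0.81 against 0.60 over all. After centring, 8 of 8 stayed higher. In all 8 the R101H replicates lay wholly above those of WT, against 48.4%. These 8 also met the minimum of 10 input counts, so the 6945 windows that met it are nearer to them. Of those 6945, 58.7% lay wholly above WT and 90.1% were higher. Their differences had a median of 0.67. By limma 0 of 8 passed and 2 had an unadjusted p under 0.05, both at the PABPC1 5′ end, while 0 of all windows passed (0%) and 2365 had an unadjusted p under 0.05. With at least 10 input counts in both groups, the second PABPC1 window passed (1.66, SE 0.42, limma adjusted p = 0.0441), which made 1 of 8 members against 9.32% of windows. Over windows enriched in every replicate, 0 of 2 members passed, against 17.8%.

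**Figure D5:**
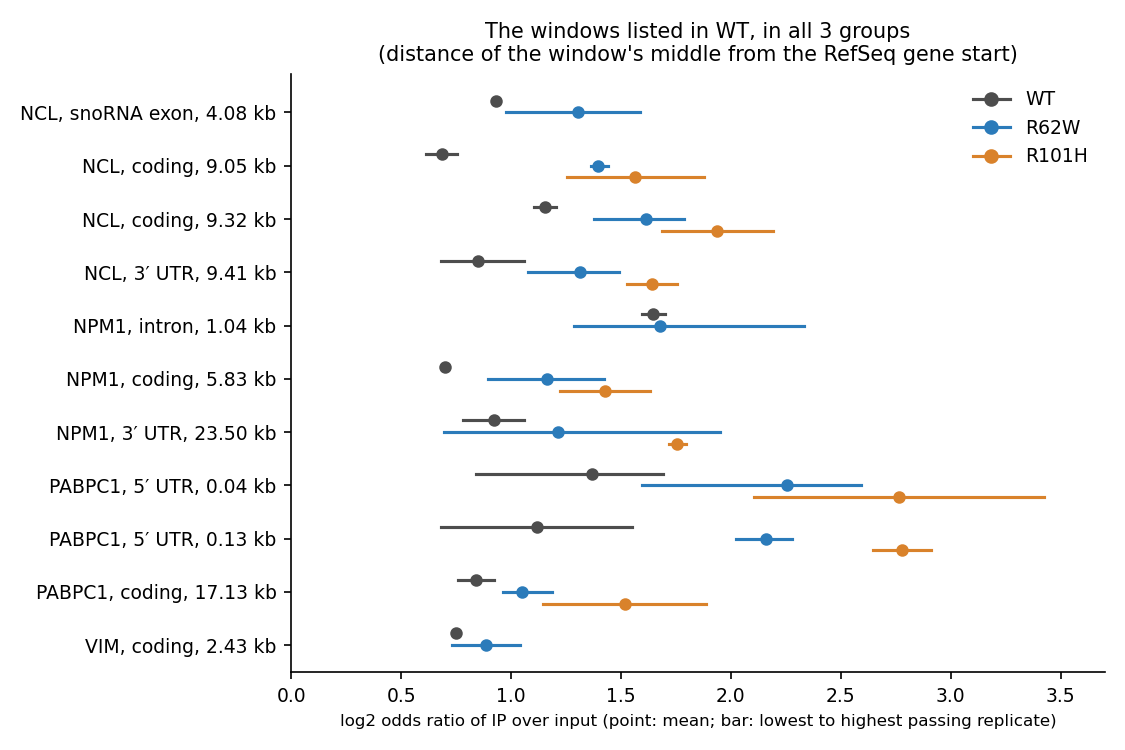
The 11 member windows listed in WT, with their class and the distance of their middle from the RefSeq gene start, and the log2 odds ratio (horizontal axis) in each group. Points are means and bars run from the lowest to the highest passing replicate. R101H bars lie to the right of WT in the 8 windows that R101H lists, by 1.66 for the second PABPC1 5′ UTR window.

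The substitutions shared 43 member windows, 61.4% of those of R62W and 62.3% of those of R101H, against 69.2% and 64.2% of the whole lists. Over these, the R101H mean was higher in 36 and lower in 7, against 71.8% higher over 59874 windows. The median difference was 0.22, close to 0.21 over all windows, and after centring 23 of 43 were higher. R101H replicates lay wholly above R62W in 11 of 43, against 17.9%, and wholly below in 1, an NCL exon window (231458564 to 231458650). By limma 0 of 43 passed, 0 had an unadjusted p under 0.05, and 0 of all windows passed (0%) with 1076 at an unadjusted p under 0.05. The largest difference was that of the second PABPC1 window, 0.62 (SE 0.31, limma adjusted p = 1.00). NPM1 was higher with R101H in 8 of 8 shared windows (median difference 0.27), NAP1L1 in 7 of 8 (0.17), PABPC1 in 11 of 13 (0.27) and NCL in 9 of 13 (0.12). Non-coding isoform exons were higher in 3 of 8 (median difference -0.06), against 918 of 1488 such windows over all genes (0.11).

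In the 8 member windows that all 3 lists held, the means rose from WT to R62W to R101H in 8 of 8, against 63.5% of 10627 windows. All 8 had at least 10 input counts, whereas the 10627 include sparser windows, and the order was not counted at that minimum. Among windows with at least 10 counts, 82.2% were higher in R62W than in WT and 90.1% in R101H than in WT. For R101H over R62W the share was 76.3%. The comparisons behind that order share the WT values, and a window had to pass in both R101H replicates but in any 2 of 3 in the other groups. Of the windows found with a substitution, 35 were in both and not in WT, 24 in R62W alone and 26 in R101H alone. These were 36.5%, 25.0% and 27.1% of the 96 distinct member windows, against 40.1%, 20.4% and 26.9% of all 122708. Those in one substitution and not the other were sparse, with a median input of 13 counts in R62W and 12 in R101H, and 3 of 27 and 4 of 26 had a highest q of at most 0.05. Of the 43 in both, 17 and 31 had. Values cover only the replicates that passed, so a low replicate that failed does not enter a mean.

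Other genes of the TOP system were set beside the members. Of 22 further non-ribosomal TOP mRNAs, 17 were listed in WT and 22 with each substitution, in 73, 282 and 291 windows with medians of 1.88, 1.49 and 1.45. EEF1A1 alone held 15, 17 and 15 of these windows, with medians of 8.06, 7.36 and 6.73. SLC25A6 held 13, 15 and 7, with medians of 2.58, 2.09 and 2.31. Over the shared windows of all 22 genes, 36 of 68 were higher in R62W than in WT (median difference 0.03) and 34 of 55 in R101H (0.14), with 0 passing in limma. Over the shared windows of all genes, 72.4% were higher in R62W than in WT (0.26) and 82.5% in R101H (0.60). With at least 10 input counts, limma called 4 of 48 windows lower in R101H than in WT, out of 7 such calls among all 6945 windows. All 4 lay in the 5′ UTR of EEF1A1, which encodes the factor that brings aminoacyl-tRNA to the ribosome, and their log2 odds ratios fell by 1.22 to 1.81. They had 3.89, 8.14, 7.68 and 8.27 in WT and 2.55, 6.73, 6.46 and 6.46 in R101H. The precipitates came from cells with a plasmid and the inputs from cells without. Whether plasmid reads entered these windows was not tested. HNRNPA1, an RNA-binding splicing regulator, had 3, 26 and 28 windows, and EIF4B, a cofactor of the initiation helicase, had 1, 26 and 33.

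Of 22 regulators of TOP translation, 10 were listed in WT and 20 with each substitution. Their shared windows were higher than WT in 53 of 64 with R62W (median difference 0.36) and in 53 of 60 with R101H (0.75). For these and the ribosomal protein mRNAs below, the background over all genes was 72.4% higher with R62W (0.26) and 82.5% with R101H (0.60). With at least 10 input counts, limma called 4 of 44 windows higher in R101H, against 9.32% of all windows: 2 in the coding sequence of MTOR, the kinase of mTORC1, the larger by 1.55, 1 in the scaffold EIF4G1 by 1.49, and 1 in the 3′ UTR of LARP1 by 1.61. Of 80 ribosomal protein mRNAs without RPS19, 44, 77 and 76 were listed, and 53 of 83 shared windows were higher in R62W than in WT (0.08) and 51 of 66 in R101H (0.31), with 2 of 54 called higher in R101H at 10 input counts or more. PABPC4, a paralog of PABPC1, had 9, 40 and 36 windows with medians of 1.46, 1.52 and 1.76, of which 1, 7 and 9 were in the 5′ UTR.

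Genes whose coding windows had a like pattern over the groups were found by the distance between their 3 group medians and the median over the members' own coding medians. The latter gives each member equal weight and was 0.80 in WT over 4 members, and 0.89 and 1.31 in R62W and R101H over 5, so it differs from the medians over all their coding windows. Among 256 genes with at least 5 coding windows in each group, the nearest were CCT3 at a distance of 0.166, ACTB at 0.223, DDX17 at 0.266, and DDX39B at 0.311 with a readthrough gene that shares its windows. CCT3 had medians of 0.86, 0.96 and 1.18, and ACTB had 0.94, 0.93 and 1.14.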

How the data were processed

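The tools fastp and STAR and the build GRCh38 are named, with no role, in the submitters' processing notes. Their versions and the window caller are not given in the sources. Per the file headers, the authors deposited, for each precipitated group, pooled IP and input read counts per window, log2 odds ratios (lowest, mean, highest), p-values and q-values of their enrichment test and the fraction of G and C. From the values, every listed window passed in at least 2 replicates with a highest q under 0.2, and counts cover passing replicates only. Counts are pooled, so no count model could be fitted. Replicate values were recovered from lowest, mean and highest and compared with limma 3.58.1 (lmFit, eBayes; R 4.3.3) over all windows that both lists held (Benjamini-Hochberg adjustment); the code was tested on simulated data. Coordinates are 1-based. Members, gene lists and the naming rule were chosen with earlier results of these data known. That rule names each member's highest window per group, the windows most and least changed from WT, and the genes of nearest coding medians. Alternatives were input minimum, stricter q, every replicate, lowest value, centring and plain count ratios.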

Additional observations from a re-analysis of the deposited data

How the results depend on the processing

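The median difference of R62W from WT, 0.46, became 0.21 with the lowest replicate, 0.68 over the 2 windows enriched in every replicate, 0.20 after centring each difference on the median of all windows, and 0.22 with plain count ratios, centred, an alternative chosen after seeing the data. For R101H minus WT, 0.81 became 0.21 after centring and 0.32 with count ratios. With at least 10 input counts 1 member window passed in R101H minus WT. Where the highest q was at most 0.05, there were 1 (WT), 20 (R62W) and 35 (R101H) member windows, and with every replicate 2 in WT and 36 in R62W; the coding share in WT was then 100% and 0%. Of R62W minus WT, the VIM start codon, NPM1 intron and PABPC1 coding windows turned to -0.13, -0.23 and -0.057 after centring and to -0.33, -0.021 and -0.070 with count ratios, and the PABPC1 coding window turned to -0.10 for R101H minus WT. Of the values that answer a comparison, 43 of the alternative values stayed the same in direction, side of the threshold or size, 13 moved and 1 became stronger. The causes were not tested. No paired analysis was possible because the deposited columns carry no replicate numbers, and for the same reason no replicate could be left out. Windows with few input counts limit precision, and libraries' depths are unknown.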
